A study of Mus musculus with 8 samples.

Results

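The mesenchyme of the cochlea was compared with the mesenchyme of the vestibule, the balance organ of the inner ear, in cells sorted from newborn mice. Each tissue gave 1 mRNA-seq library. The comparison took the log2 ratio of the cochlear to the vestibular value for every gene whose higher mesenchyme value was at least 100, and 11380 of the 15275 genes in the table met this minimum. A gene was counted as different when the values stood at least 4-fold apart. By this rule 115 genes were higher in cochlear mesenchyme, or 1.01% of those entered, and 123 genes were higher in vestibular mesenchyme, or 1.08%. With 1 library per tissue there was no replicate error against which to hold a ratio, so no test was run and every ratio below compares these libraries rather than the tissues at large.

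The study placed 8 libraries side by side, from epithelium, neurons, mesenchyme and vascular endothelium of the cochlea and of the vestibule. By the labels and the study's methods all came from ICR mice at postnatal day 0, with no genetic change or treatment named, although the study's main text gives a later day for the cochlear libraries. Dissociated inner ears were stained for CD326, CD49f and CD34 and the cell types were separated by fluorescence-activated sorting. CD326 is the product of Epcam and marks epithelium, CD49f is integrin alpha 6 (Itga6) and CD34 marks blood vessel endothelium. The sources used here do not give the number of animals or cells behind a library, the gate that defined mesenchyme, or the sequencing depth. The values are normalized signal with a lowest value of 20, which is the floor of the table, and a ratio against a value of 20 is a lower bound.

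Otic mesenchyme condenses around the epithelium of the developing ear. It forms the cartilage and later the bone of the capsule, the fibrocytes that recycle potassium in the cochlear lateral wall, and the connective tissue below the vestibular sense organs. The POU factor Pou3f4 and the T-box factor Tbx18 mark this tissue and are required for its development in mice.

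Both markers were high in the 2 mesenchyme libraries, as their label requires. Pou3f4 (chrX:110814280-110817207, GRCm38) had a value of 5381 in cochlear and 5579.6 in vestibular mesenchyme, against 57.6 to 580.0 in the 6 libraries of the other cell types. Tbx18 (chr9:87702800-87731260) had 16109 in cochlear and 22463 in vestibular mesenchyme, against 121 to 1758 elsewhere. Their log2 ratios were -0.05 and -0.48, so neither marker separated the organs by 2-fold. The sorting genes were low in both mesenchyme libraries beside the libraries where each was highest. Epcam had 43.6 and 153 there and at least 14253 in epithelium, and Cd34 had 227 and 226 there and at least 22463 in endothelium. Itga6 had the highest mesenchyme values of the sorting genes, with 514 in cochlea and 265 in vestibule. Its values were 28444 and 18734.6 in neurons and at least 3515.5 in every library outside mesenchyme. Outside mesenchyme, Pou3f4 had a higher value in vestibular neurons than in cochlear neurons (580.0 against 190.1) and likewise in endothelium (334 against 57.6), and so did Tbx18 (1758 against 452 and 1273 against 121). In these bulk libraries a gene with a lower value may be carried by fewer cells or by less RNA per cell, and these cannot be told apart.

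The mesenchyme libraries were close to each other. Over all 15275 genes their values had a Spearman correlation of 0.965, compared with 0.959 for the epithelium libraries, 0.922 for the neurons and 0.877 for the endothelium. The log2 ratio of the genes entered had a median of 0.02 and an SD over genes of 0.67, and 5% to 95% of the genes spanned -1.05 to 0.98. The same SD was 0.742 in epithelium, 1.01 in neurons and 1.28 in endothelium, over the genes that reached 100 in those cell types. At 2-fold, 552 genes were higher in cochlear mesenchyme (4.85%) and 629 in vestibular mesenchyme (5.53%), and at 8-fold the counts were 19 (0.167%) and 36 (0.316%). These shares, with 1.01% and 1.08% at 4-fold, are the background for the gene list counts below. The 4-fold shares of 1.01% and 1.08% compared with 0.981% and 2.44% in epithelium, 2.11% and 3.52% in neurons and 4.81% and 6.37% in endothelium, cochlear-higher first, each over the genes that reached 100 there. The largest cochlear ratio was 17.1-fold, for C130060K24Rik, and 7 vestibular ratios exceeded it.

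**Figure D1:**
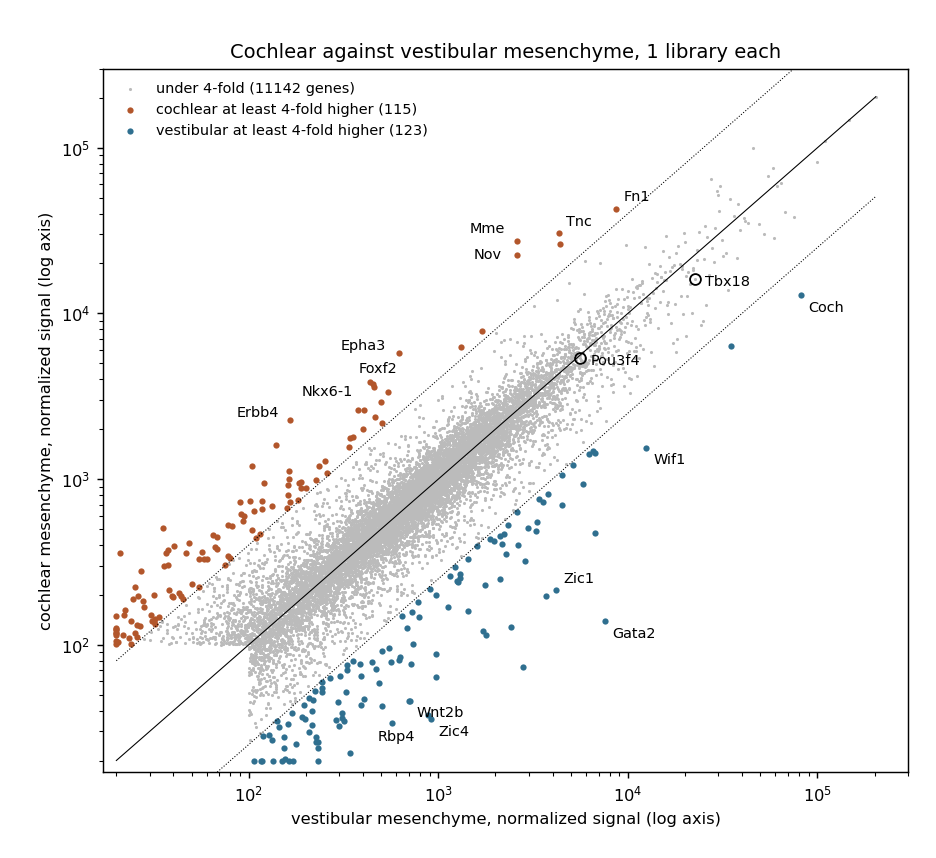
Normalized signal of the 11380 genes entered in vestibular mesenchyme (x axis, log scale) and cochlear mesenchyme (y axis, log scale), 1 point per gene. The solid line marks equal values and the dotted lines a 4-fold difference; 115 genes lie above them and 123 below, while the circled markers Pou3f4 and Tbx18 lie near the line of equal values.

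Transcription factors held the largest difference of all. Gata2 (chr6:88193891-88207032, GRCm38), a zinc-finger factor of blood stem cells that in mice is also required for semicircular duct growth and the fluid space around the ducts, had 138 in cochlear and 7590.4 in vestibular mesenchyme, a 54.8-fold difference (log2 ratio -5.78). The other 6 libraries had 1225 to 7896, so the cochlear mesenchyme was the lowest of the 8 libraries rather than the vestibular mesenchyme the highest. The log2 ratio of Gata2 was -0.73 in epithelium, 0.45 in neurons and -0.31 in endothelium. Cochlear mesenchyme alone was lowest of the 8 in 14 of the 123 vestibular-higher genes, compared with 5.06% of the genes entered. The rule itself required a lower cochlear value in these genes, and ties at the floor were not counted.

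The Zic family, zinc-finger factors of the neural tube and of the mesoderm beside it, split within itself. Zic1 (chr9:91358058-91365810) had 215 in cochlear and 4165 in vestibular mesenchyme (log2 ratio -4.28). Zic4 (chr9:91362413-91389348) had 35.4 and 912 (log2 ratio -4.69). Both had their highest value of the 8 libraries in vestibular mesenchyme. The family members Zic2 and Zic5, chosen here after their values were seen, were nearly equal, with 5898 and 6975 for Zic2 and 2450.0 and 2463 for Zic5. The log2 ratio of Zic1 was also -4.31 in neurons, at values of 20 and 396.

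Zic1 and Zic4 are adjacent, are transcribed away from each other and overlap in the annotation, and no source used here says whether reads were assigned by strand, so part of the reads of either gene may have been counted for the other. The RefSeq starts of the pair (GRCm38.p6) lie 3204 bases apart. Their promoters are shown because both genes were among the 5 largest vestibular ratios and stand next to each other. Each run holds the 250 bases before the start, 5′ to 3′ on the strand of the gene, and capitals mark a GATA motif.
Zic1, chr9:91365769-91366018, minus strand: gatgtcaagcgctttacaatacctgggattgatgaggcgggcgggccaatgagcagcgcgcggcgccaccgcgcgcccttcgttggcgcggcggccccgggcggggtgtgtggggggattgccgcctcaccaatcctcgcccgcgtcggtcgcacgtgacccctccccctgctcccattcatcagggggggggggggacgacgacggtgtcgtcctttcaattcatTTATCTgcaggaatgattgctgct
Zic4, chr9:91368722-91368971, plus strand: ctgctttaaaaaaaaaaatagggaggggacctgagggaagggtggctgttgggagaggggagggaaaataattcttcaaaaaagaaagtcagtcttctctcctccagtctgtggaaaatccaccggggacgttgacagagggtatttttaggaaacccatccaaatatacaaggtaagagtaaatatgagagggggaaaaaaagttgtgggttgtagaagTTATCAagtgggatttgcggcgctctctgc
The motif searched was AGATAA or TGATAA on either strand, and each run holds 1 match. It was present in 18.8% of the 27025 genes with a promoter of this length in the table and in 10.3% of the 8113 genes entered that matched. Among the genes at least 4-fold apart it was present in 13 of the 86 vestibular-higher genes that matched (15.1%) and in 5 of the 75 cochlear-higher genes (6.67%). Neither of the 2 Gata2 promoters in the table holds it. A match is a stretch of letters and not a measured binding site.

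Other factors on the vestibular side were Six2, a homeobox factor of kidney and craniofacial mesenchyme, with 404 and 2169 (log2 ratio -2.42), and Tbx15, a T-box factor of the skeleton, with 54.8 and 242 (-2.14). Npas2, a partner of the circadian clock, had 22.1 and 340.0. In epithelium Six2 had 2300.4 in cochlea and 1189 in vestibule. In neurons and endothelium Six2 was vestibular-higher, with log2 ratios of -1.81 and -2.99. Tbx15 had a larger vestibular ratio in neurons (-4.44), at 24.8 and 536.5, and vestibular neurons were its highest library.

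The cochlear mesenchyme had higher values of a different group of factors. Foxf2 (chr13:31625816-31631403), a forkhead factor of mesenchyme and of brain pericytes, had 3744 in cochlear and 453 in vestibular mesenchyme (log2 ratio 3.05). Its neighbour Foxq1, 64840 bases away on the same chromosome, had 521 and 81.1 (2.68). Both forkhead genes were also higher in cochlear than in vestibular endothelium, with log2 ratios of 1.45 and 1.09. Nkx6-1 (chr5:101658139-101664996), a homeobox factor known from pancreatic beta cells and the ventral neural tube, had 3575 and 458 (2.97), and no other library exceeded 189.9. The helix-loop-helix factor Ebf2 had 2352 and 465 (2.34). Tbx1, a T-box factor that in mice acts in both the otic epithelium and the mesenchyme around it, had 739 and 102 (2.86). In epithelium Tbx1 stood the other way, at 209 in cochlea and 1702 in vestibule. Dach1, a transcriptional corepressor, had 3342 and 541 (2.63).

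In the list of 39 otic mesenchyme transcription factors that entered, 3 were at least 4-fold higher in cochlear and 5 in vestibular mesenchyme, and the median log2 ratio was 0.54 against 0.02 over all genes. At 2-fold the counts were 14 and 5. The cochlear-higher genes between 2-fold and 4-fold, named after their values were seen, included the nuclear receptors Nr2f1 (2911 and 1439) and Nr2f2 (4919.6 and 2249.8). At 2-fold the cochlear ratios were thus more numerous, and the 2 largest were vestibular, those of Zic4 and Zic1. The median of the same list was 0 in epithelium, -1.61 in neurons and -1.14 in endothelium.

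**Figure D2:**
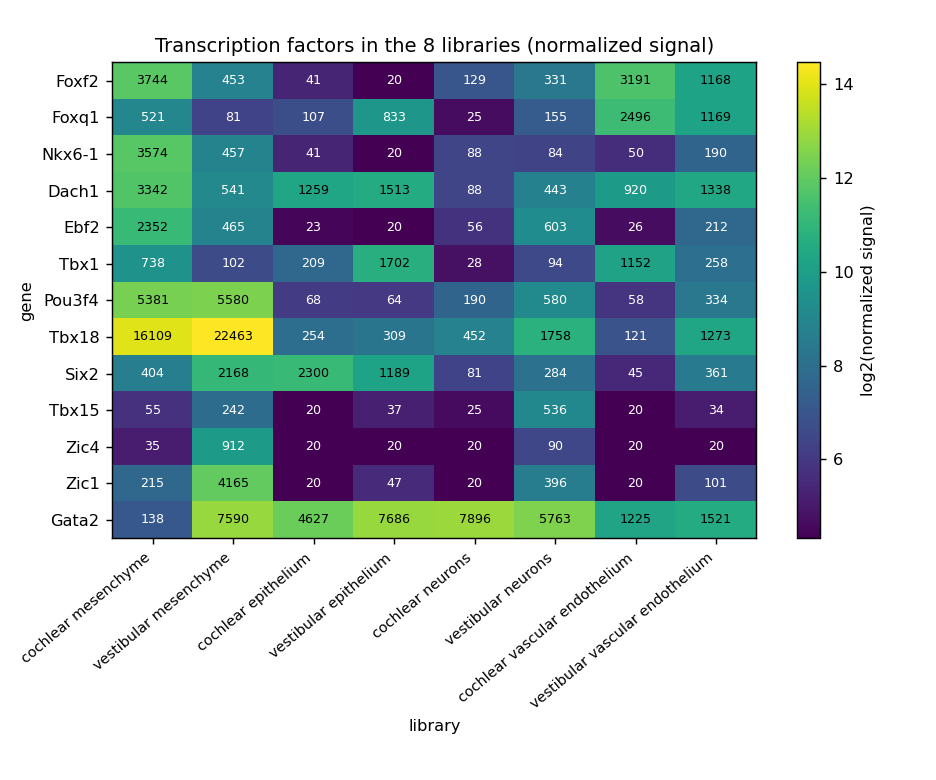
Normalized signal of 13 transcription factors (rows) in the 8 libraries (columns), with the value in each cell and colour on a log2 scale. Gata2 is low in cochlear mesenchyme alone, at 138, whereas Zic1 and Zic4 are highest in vestibular mesenchyme and Nkx6-1 and Ebf2 in cochlear mesenchyme.

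Wnt signalling genes differed at the level of ligands and secreted inhibitors. The ligand Wnt2b had 45.8 in cochlear and 704 in vestibular mesenchyme (log2 ratio -3.94), and none of the 6 other libraries exceeded 60.0. Wnt5b, another ligand, had 218 and 898 (-2.04). The secreted inhibitor Wif1, which binds Wnt proteins, had 1545 and 12459 (-3.01). Frzb, a soluble frizzled-related inhibitor, had 319.5 and 2847 (-3.16). These 2 ligands and 2 inhibitors were the genes of the list past 4-fold on the vestibular side. On the cochlear side stood Notum, an enzyme that inactivates Wnt proteins by removing their lipid, with 2924 and 497 (2.56), and Lgr5, a receptor for R-spondins, with 194 and 39.9 (2.28). Lgr5 is a marker of supporting cells in the cochlear epithelium, where it had 1646, so its mesenchyme values were low on the scale of that gene. Of the 36 Wnt genes entered, 2 were at least 4-fold higher in cochlear and 4 in vestibular mesenchyme, with a median log2 ratio of -0.09.

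Among the BMP and TGF-beta genes, Bmp3, a ligand that opposes other BMPs, had 42.4 and 504 (log2 ratio -3.57), and the BMP antagonist Chrdl1 had 696 and 4474 (-2.68). These were the 2 genes of the 37 entered to pass 4-fold. Both were higher in vestibular mesenchyme, and the median of the list was 0.08. Of 15 FGF genes, the ligand Fgf10 had 117 in cochlear mesenchyme and lay at the floor of 20 in vestibular mesenchyme, at least 5.87-fold higher, while the feedback inhibitor Spry1 had 636 and 2608 (-2.03). The higher value of Fgf10 was just above the minimum of 100, and its cochlear epithelium value was 2584. In the retinoic acid list of 15 genes, 1 passed 4-fold. It was Rbp4, the plasma carrier of retinol, with 33.5 and 571 (-4.09), and Rbp4 lay at the floor in all 6 libraries of the other cell types. Igfbp7, which binds insulin-like growth factors and is abundant in endothelium, was the single gene of 15 in its list past 4-fold, with 261 and 1153 (-2.15). Of 8 chemokines and cytokines, none was higher in cochlear mesenchyme. Il33, an alarmin of the interleukin-1 family, had 254 and 1293 (-2.35), and Lif had 32 and 145 (-2.18).

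Receptors and adhesion proteins known from growing axons stood on both sides. Erbb4 (chr1:68032186-69108059), the neuregulin receptor kinase, had 2258 in cochlear and 166 in vestibular mesenchyme (log2 ratio 3.77). In the other cell types Erbb4 was higher in the vestibular library, with log2 ratios of -1.86, -1.59 and -4.10 in epithelium, neurons and endothelium, and it had the largest distance of any cochlear-higher gene between its mesenchyme ratio and the nearest other ratio (5.36). Epha3, an ephrin receptor, had 5728 and 616 (3.22), and its relative Epha5 had 728 and 165 (2.14). The cadherin Cdh6 had 3878 and 438 (3.14). The synaptic adhesion proteins Slitrk2 and Slitrk3 had 726 and 412 in cochlear and 89.5 and 48.1 in vestibular mesenchyme. In the list of 47 guidance genes, 3 were at least 4-fold higher in cochlear and 2 in vestibular mesenchyme, with 11 and 3 at 2-fold and a median of 0.21. The vestibular genes were Ntn4, a netrin of basement membranes, with 120.4 and 1714 (-3.83), and the secreted repellent Sema3a with 296 and 1219.8 (-2.04). The axonal adhesion protein Cntn6 also stood on the vestibular side, with 198 and 3713 (-4.23).

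Enzymes gave further large ratios. Mme (chr3:63241537-63386030), the membrane peptidase neprilysin, had 27503 in cochlear and 2584 in vestibular mesenchyme (log2 ratio 3.41) and was highest of the 8 libraries in cochlear mesenchyme. Aldh1a7, an aldehyde dehydrogenase, had 1191 and 104 (3.52), and the prohormone convertase Pcsk2 had 1605 and 139 (3.53). On the vestibular side the lipase Lpl had 87.5 and 970.0 (-3.47). Rapgef5, an exchange factor for Rap GTPases, had 128 and 2413 (-4.24), and Sphkap, an anchor of protein kinase A, had 37.9 and 885 (-4.55). The genes C130060K24Rik (359.9 and 21) and 1110032A04Rik (506 and 35.3) had the largest cochlear ratios and lay at the floor in all 6 libraries of the other cell types.

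The extracellular matrix differed in which molecules were high. Nov, a matricellular protein also known as Ccn3, had 22463 in cochlear and 2594 in vestibular mesenchyme (log2 ratio 3.11). Tenascin C (Tnc) had 30366 and 4319.5 (2.81), and fibronectin (Fn1) had 42828 and 8642 (2.31). Each of these glycoproteins was highest of the 8 libraries in cochlear mesenchyme. Fn1 overlaps Apol7d in the annotation and both were cochlear-higher. Of 41 matrix glycoproteins, 3 were at least 4-fold higher in cochlear and 0 in vestibular mesenchyme, with 9 and 3 at 2-fold and a median of 0.23. The count of 0 depends on what the list holds. The matrix genes Lama1 (-3.97), Ntn4 (-3.83) and Coch (-2.68) were past 4-fold on the vestibular side and are not in it. The cytokine-like secreted protein Cytl1, known from cartilage, had 2621 and 378 (2.80).

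Collagens and small leucine-rich proteoglycans leaned the other way. The median log2 ratio was -0.56 over 28 collagens and -0.56 over 12 proteoglycans. In epithelium, neurons and endothelium the medians were -0.49, 0.33 and -1.54 for the collagens and 0.21, -1.01 and -2.27 for the proteoglycans. Col7a1, which forms the anchoring fibrils below epithelia, had 351 and 2280.1 (-2.70), and the laminin chain Lama1 had 114 and 1788 (-3.97). Col25a1, a transmembrane collagen, was the collagen that passed 4-fold in the cochlear direction, with 7848 and 1697 (2.21). Of the collagens 2 were at least 2-fold higher in cochlear and 7 in vestibular mesenchyme. No proteoglycan passed 4-fold, and decorin (Dcn) had 10092 and 21678, lumican (Lum) 3182 and 6947, and osteomodulin (Omd) 135 and 332.

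Skeletal and matrix-remodelling genes held few large ratios. Of 22 cartilage genes 1 passed 4-fold, which was Cytl1, and the median was -0.13. None of 9 bone genes did, and Spp1, the gene of osteopontin, had 883 and 2523 (-1.51). Among 25 metalloproteinases and their inhibitors, Adamts10, a protease that acts on fibrillin microfibrils, had 1441 and 6669 (-2.21), and Adamts15, which cleaves proteoglycans, had 302 and 75 (2.01). The median of that list was 0.28. Of 26 immediate early and heat shock genes, which move with handling of tissue, 20 were higher in vestibular mesenchyme and 0 passed 4-fold, with a median of -0.27. The largest were the heat shock gene Hspb1 with 26.5 and 101 (-1.93) and the early response gene Ier3 with 2255 and 7702 (-1.77), and the part of handling in the ratios was not tested. Of 11 pericyte and smooth muscle genes, the filament gene Des had the largest ratio, with 669 and 193 (1.79), and 9 had a higher vestibular value.

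Fibrocyte genes were mostly higher in vestibular mesenchyme. Coch (chr12:51593341-51605771), which encodes the matrix protein cochlin and is mutated in a dominant human hearing and balance disorder, had 12861 in cochlear and 82226 in vestibular mesenchyme (log2 ratio -2.68). Gjb6, which encodes the gap junction protein connexin 30, had 554 and 3324 (-2.59). Of the 22 fibrocyte genes entered, 0 were at least 4-fold higher in cochlear and 2 in vestibular mesenchyme, with 2 and 8 at 2-fold, and the median was -0.72. The median of the same list was -0.31 in epithelium, -1.26 in neurons and -2.40 in endothelium, so the vestibular lean was not particular to mesenchyme. Named after their values were seen, Gjb2 (connexin 26) had 3624 and 9553, and Crym, a thyroid hormone-binding protein, stood against the rest with 20579 and 5966. Otor, a secreted protein of these cells, had 109100.4 in both libraries. Since all libraries hold the same sorted values, this shows an equal rank in both and not an equal measured amount. Coch was also higher in the vestibular library of each other cell type, with log2 ratios of -2.57, -3.33 and -5.05 in epithelium, neurons and endothelium, and its value in vestibular neurons was 8709.

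**Figure D3:**
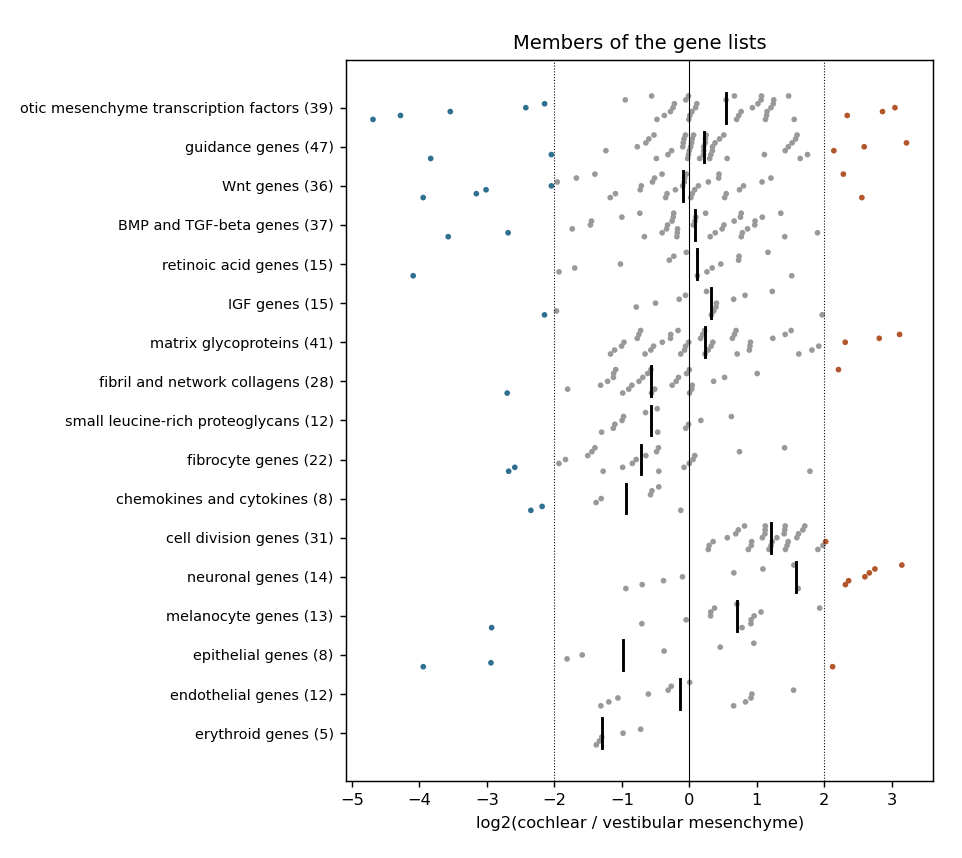
Log2 ratio of cochlear to vestibular mesenchyme for the members of 17 gene lists that entered, 1 point per gene, with the number of genes in parentheses and the median of each list as a black bar. Dotted lines mark 4-fold; the list medians run from -1.30 for the erythroid genes to 1.58 for the neuronal genes, and 31 of 31 cell division genes lie to the right of 0.

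Genes of dividing cells were higher in cochlear mesenchyme throughout the list. All 31 cell division genes entered had a positive log2 ratio, 21 of them at least 2-fold and 1 at least 4-fold, with a median of 1.21. Of all genes entered, 4.85% were at least 2-fold and 1.01% at least 4-fold cochlear-higher. Cenpf, a kinetochore protein, had 443 in cochlear and 109 in vestibular mesenchyme (2.02). The proliferation antigen gene Mki67 had 1239 and 463, and the topoisomerase gene Top2a had 1643 and 545, both named after their values were seen. The median of the same list was -0.31 in epithelium, 0.42 in neurons and 0.31 in endothelium. Mki67 and Top2a had higher values in the neuron and endothelium libraries than in either mesenchyme library, at 2969 to 7702 for Mki67 and 3721 to 6606 for Top2a.

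Marker lists of other cell types were read in the same libraries, because the sorts may have held other cells. Neuronal genes were mostly higher in cochlear mesenchyme, with a median log2 ratio of 1.58. Of the 14 entered, 6 were at least 4-fold and 9 at least 2-fold higher, beside 1.01% and 4.85% of all genes entered. In the other direction 0 reached 2-fold. By sign alone, 10 were cochlear-higher and 4 vestibular-higher. Stmn2 had 222 and 25, Nefm 615 and 91.4, and Mapt 331 and 54.5. The further neuronal genes Ina and Dcx were among the 20 largest cochlear ratios, at 278 and 304 against 27 and 37.6. The list was higher in cochlear neurons too, with a median of 1.13, and Stmn2 had 603 there against 23.4 in vestibular neurons. Summed over the 22 neuronal genes in the table, the signal was 12000 in cochlear and 8110 in vestibular mesenchyme, beside 11500 and 8330 in the neuron libraries. Most of either mesenchyme sum came from list members under 4-fold. The 6 genes past 4-fold had at most 615 in cochlear mesenchyme, and each was higher in cochlear neurons than there. At the floor were 1 gene of the list in cochlear and 7 in vestibular mesenchyme. Nefm and Nefl overlap in the annotation. The share of neuronal RNA in the cochlear ratios, those of the adhesion genes included, was not tested.

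Of 8 epithelial markers entered, 5 had a higher vestibular and 3 a higher cochlear value. Krt18, a keratin of simple epithelia, had 45.6 in cochlear and 701 in vestibular mesenchyme, and Oc90, an otoconial matrix protein of the vestibular epithelium, had 229.9 and 1763. In vestibular epithelium they had 14751 and 147259.9. Tecta, a tectorial membrane protein, stood the other way with 989.8 and 227. In this list 1 gene was at least 4-fold higher in cochlear and 2 in vestibular mesenchyme, with a median of -0.98. The 26 epithelial genes in the table summed to 7920 in cochlear and 8170 in vestibular mesenchyme, against 312000 and 404000 in epithelium, and 14 and 8 of them were at the floor in mesenchyme. Among those at the floor in both mesenchyme libraries were Krt19, Esrp1, Grhl2 and Pax2. The part of epithelial RNA in the vestibular ratios was not tested. The 5 erythroid genes had a median of -1.30, led by the haemoglobin gene Hba-a1 with 6991 and 18173, and the list summed to 89600 and 170000 in mesenchyme but at most 5620 in any other library. Of 11 meningeal genes, 3 were at least 4-fold higher in vestibular mesenchyme and 0 in cochlear mesenchyme. These were Zic1, Ranbp3l with 248 and 2106, and Slc13a3, which lay at the floor in cochlear mesenchyme and had 133 in vestibular mesenchyme. The pigment enzyme gene Tyrp1 had 80.9 and 616, although the 13 melanocyte genes had a median of 0.70 in the other direction. The glial gene Fabp7 had 419.9 and 1972, at 32735 and 42828 in the neuron libraries. The endothelial genes had a median of -0.13 over 12 genes with 0 past 4-fold, no skeletal muscle gene reached 100, and 3 macrophage genes entered. The part of any of these cells in the mesenchyme ratios was not tested.

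**Figure D4:**
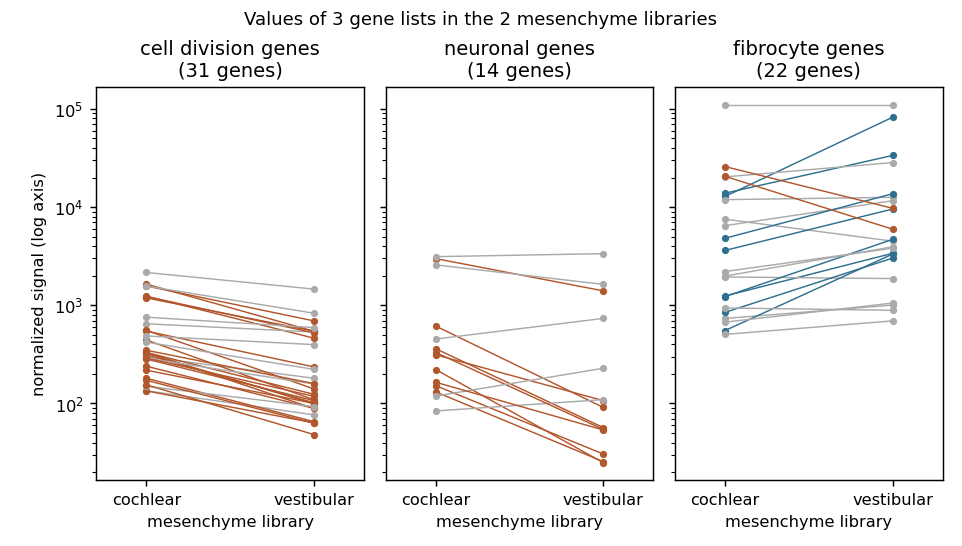
Normalized signal (log scale) of each cell division, neuronal and fibrocyte gene entered, joined by a line between the cochlear and the vestibular mesenchyme library. Lines coloured brown are at least 2-fold higher in cochlear and those coloured blue at least 2-fold higher in vestibular mesenchyme; the counts are 21 and 0 for cell division, 9 and 0 for neuronal and 2 and 8 for fibrocyte genes.

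The comparison was then set beside the same ratio in the other 3 cell types, to ask which differences recurred between the organs in other cells. Across the 11380 genes, which share the libraries' normalization, the mesenchyme ratio had a Spearman correlation of 0.24 with the epithelium ratio, -0.04 with the neuron ratio and -0.13 with the endothelium ratio. Of the 115 cochlear-higher genes, 20 were at least 2-fold cochlear-higher in epithelium (3.26% of all genes entered), 32 in neurons (12.7%) and 10 in endothelium (20.2%). Of the 123 vestibular-higher genes, 35 were at least 2-fold vestibular-higher in epithelium (5.04%), 55 in neurons (11.8%) and 52 in endothelium (20.7%). At 4-fold the same direction held for 5 of the 115 cochlear-higher genes in epithelium (0.51% of genes entered), 17 in neurons (1.57%) and 3 in endothelium (3.8%). It held for 20 of the 123 vestibular-higher genes in epithelium (1.42%), 23 in neurons (2.39%) and 30 in endothelium (5.3%). In endothelium 50 of the 115 cochlear-higher genes and 17 of the 123 vestibular-higher genes went at least 2-fold the other way. Beside the vestibular-side counts in neurons and endothelium stand the higher Pou3f4 and Tbx18 values of the vestibular libraries of those cell types, and the part of mesenchyme RNA in them was not tested.

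Genes whose mesenchyme difference had no 2-fold counterpart in the same direction elsewhere numbered 64 of 115 on the cochlear side and 39 of 123 on the vestibular side. The background for this count was 72.3% and 72.5% of the genes entered. Outside mesenchyme, 21 of the cochlear-higher and 25 of the vestibular-higher genes were below 100 in all 6 other libraries, compared with 1.77% of the genes entered. By the distance between the mesenchyme ratio and the nearest other ratio, the cochlear side was led by Erbb4 (5.36), C130060K24Rik (4.10), 1110032A04Rik (3.84) and Aldh1a7 (3.72). The vestibular side was led by Gata2 (5.05), Rbp4 (4.09), Rapgef5 (4.09) and Lama1 (3.59). C130060K24Rik, 1110032A04Rik and Rbp4 lay at the floor in all 6 other libraries. No organ ratio could be measured for them there, and their distances restate the mesenchyme ratio. Rapgef5 was higher in endothelium than in either mesenchyme library, at 3198 and 2229, and showed no 4-fold organ difference there. Coch, Krt18 and Cntn6, by contrast, stood at least 2-fold on the vestibular side in at least 2 further cell types.

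**Figure D5:**
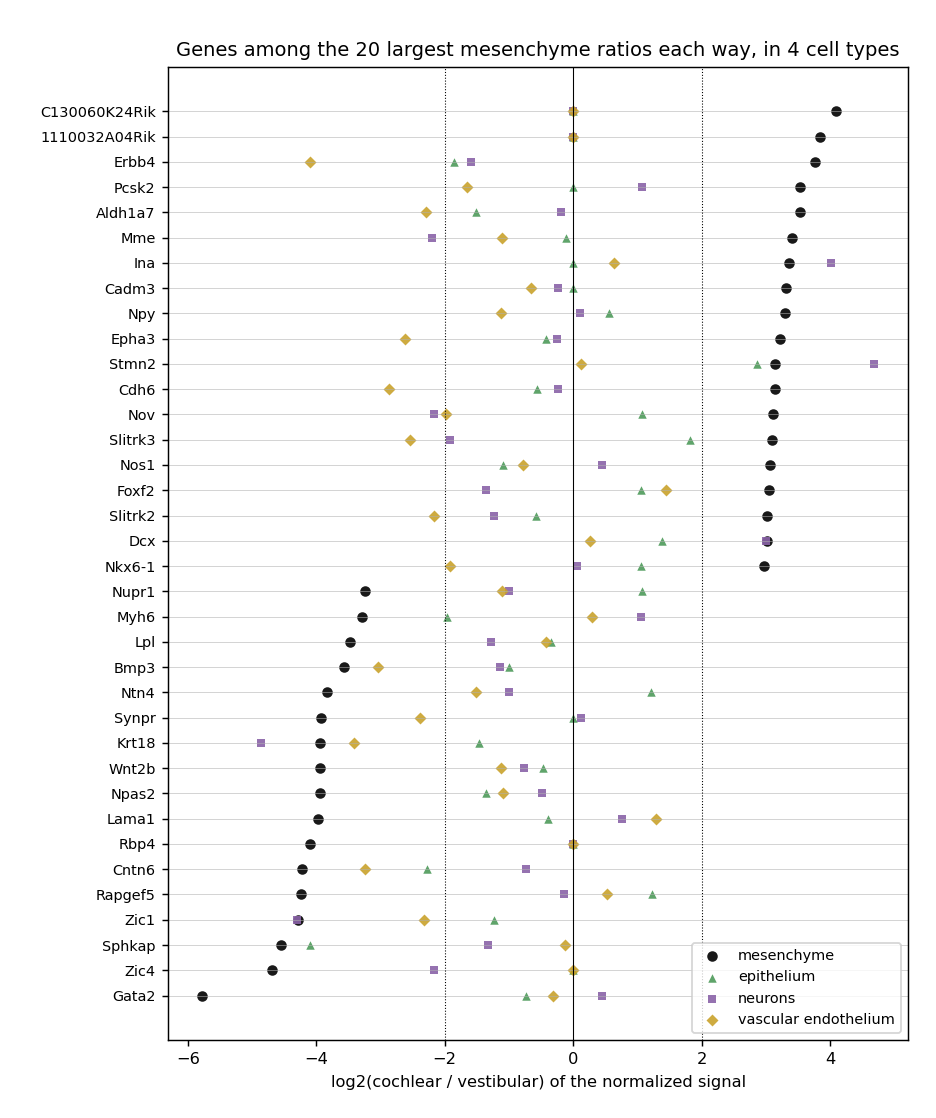
Log2 ratio of cochlear to vestibular signal in mesenchyme (black circles), epithelium (triangles), neurons (squares) and vascular endothelium (diamonds) for genes with 1 of the 20 largest mesenchyme ratios in either direction. Dotted lines mark 4-fold. Most coloured symbols lie nearer to 0 than the black circle of the same gene, which the choice of genes by their mesenchyme ratio favours. A symbol at 0 can stand for both values at the floor of 20, as for Rbp4. Erbb4 in endothelium reaches -4.10 against 3.77 in mesenchyme.

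In level across the 8 libraries, 55 of the 115 cochlear-higher genes had their highest value in cochlear mesenchyme, against 9.04% of the genes entered, and 72 of the 123 vestibular-higher genes had theirs in vestibular mesenchyme, against 12.7%. Since the rule required a high value in that library, these shares describe the genes and read nothing further. Another 21 cochlear-higher genes were highest in cochlear neurons, and 15 vestibular-higher genes were highest in vestibular epithelium. The higher value was below 250 in 40 cochlear-higher and 35 vestibular-higher genes, compared with 17.9% of the genes entered, and the lower value was at the floor in 9 and 8. The higher value reached 1000 in 28 and 46 genes, compared with 39.1% of the genes entered. All 238 genes were listed as protein coding, as were 99.2% of the genes entered.

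Position was the remaining property that the rule did not use. Among the 237 genes with coordinates, 16 pairs lay within 100 kb of each other and the members of all 16 pairs differed in the same direction. Over all genes entered, 4600 of 8338 neighbouring pairs at this distance had ratios of the same sign (55.2%). That share counts pairs at any ratio, whereas both members of the 16 pairs were past 4-fold, so the measures are unlike. Foxq1 and Fabp7 each recur among the 16 pairs. Of the 16 pairs, 5 pairs overlap in the annotation and may share reads. The others included Foxq1 with Foxf2, Stk32b with Cytl1 and Notum with Cbr2 on the cochlear side, and Slc13a4 with Fam180a and Pkib, Fabp7 and Smpdl3a in a row on the vestibular side.

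At the threshold itself, Adamts15 (302 and 75) was the last cochlear-higher gene inside and Gjc3 (304 and 76) the first outside. On the vestibular side Lrrn2 (397 and 1603) was the last inside and Itih2 (409 and 1613) the first outside. With a pseudocount of 20 added to each value, 18 of the 96 named genes past 4-fold fell under it, including Tbx15, Wnt5b, Lgr5, Fgf10, Lif, Sema3a, Slc13a3, Cenpf and the neuronal genes Tubb3 and Elavl4.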

How the data were processed

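The deposited table holds 1 value per gene and library, in normalized signal units; the authors' steps of counting, division by gene length and normalization are not given in the sources used here. TopHat 1.0.0 and the GRCm38 build are listed in the submitters' processing notes. All 8 libraries have the same sorted values, so each had been set to 1 common distribution, with a floor of 20 shared by 2058 genes per library. Depth is unknown, so counting intervals cannot be given. The columns with a mean and with gene clusters were not used.

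Log2 ratios were computed without a pseudocount (Python 3.11.15, pandas 2.3.3) and checked on simulated data. The simulated noise was smaller than the spread over genes here, so that check covers the computation and not the genes called. Of the gene identifiers, 15030 matched GENCODE vM21, which gave positions on GRCm38. Genes named were the markers, the 20 largest ratios each way, the 15 most distant from the other cell types, list members past 4-fold or otherwise the 3 largest, and the 5 on each side of the threshold. Other genes are said to be chosen after their values were seen. Comparison, members and all 35 gene lists were chosen with earlier results of these data known. The labels and the study's methods give postnatal day 0, while its main text gives postnatal day 2 for the cochlear mRNA-seq, and the labels were followed. Alternatives were another pseudocount, scaling, minimum, fold threshold and set of cell types. Some genes are not reported here.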

Additional observations from a re-analysis of the deposited data

Results flagged for a closer look

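Among the 20 largest ratios in each direction, 6 genes had a ratio of at least 4-fold in the opposite direction in another cell type where the higher value reached 100. All 6 were higher in cochlear mesenchyme, and none of these differences between cell types was tested, since each group held 1 library. Erbb4 had a log2 ratio of 3.77 in mesenchyme and -4.10 in endothelium, where its values were 28.6 in cochlea and 491 in vestibule. Cdh6 had 3.14 in mesenchyme and -2.87 in endothelium, at 31.3 and 229. Epha3 had 3.22 and -2.61 in endothelium, at 65.4 and 399.5. Slitrk3 had 3.10 and -2.53 in endothelium, at the floor of 20 in cochlea and 116 in vestibule. In neurons, Mme had -2.21, at 359 and 1656, against 3.41 in mesenchyme. Nov had -2.17 in neurons, at 117 and 527, against 3.11 in mesenchyme. The mesenchyme markers were also vestibular-higher in these cell types. Pou3f4 and Tbx18 had log2 ratios of -2.53 and -3.40 in endothelium and -1.61 and -1.96 in neurons. Of all genes entered, 5.3% in endothelium and 2.39% in neurons were at least 4-fold vestibular-higher. The part of mesenchyme RNA in the endothelium and neuron ratios of these 6 genes was not tested.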

How the results depend on the processing

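The count of genes at least 4-fold higher in cochlear mesenchyme, 115 as reported, became 76 with a pseudocount of 20, 75 with a minimum of 250 and 28 with a minimum of 1000, and 552 and 19 at 2-fold and 8-fold. The vestibular count of 123 became 46 with a minimum of 1000, and 629 and 36 at 2-fold and 8-fold. It was 91 with a pseudocount of 20 and 88 with a minimum of 250. A pseudocount of 1, centring, scaling by trimmed means and a minimum of 50 or none gave 112 to 127 cochlear-higher and 122 to 137 vestibular-higher genes. Subtracting the floor and adding 20 returns the same values by construction. The 103 genes with no 2-fold counterpart elsewhere became 120 without epithelium, 142 without neurons and 123 without endothelium. With a pseudocount of 20, 17 of 151 named ratios moved by more than 1.5-fold. The direction of a ratio was not tested by these settings. An equal pseudocount cannot reverse a ratio, and the scalings shifted every log2 ratio by about 0.02. Of the 96 named genes past 4-fold, 18 fell under it with a pseudocount of 20, among them Fgf10, Lgr5, Lif, Tbx15, Wnt5b, Sema3a, Slc13a3, Cenpf, Tubb3 and Elavl4, and 1 to 3 did with a pseudocount of 1, centring or trimmed-mean scaling. No paired analysis was possible because each group held 1 library, and for the same reason no library could be left out of a group. The depth behind low values is unknown.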

Other observations

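Transporters were read by symbol after the values had been seen, so the grouping carries no support of its own. Of 200 solute carrier genes entered, 6 were at least 2-fold higher in cochlear and 33 in vestibular mesenchyme, and 1 and 7 were at least 4-fold higher, beside 4.85% and 5.53% of all genes at 2-fold. The vestibular-higher carriers included the glutamate transporter Slc1a3 (4818 and 13674), the amino acid transporter Slc7a8 (949.8 and 3007) and the glutamine transporter Slc38a3 (1054 and 4489.6). Slco1c1, which carries thyroid hormone, stood the other way at 1010.5 in cochlear and 395 in vestibular mesenchyme.

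Cadherins and protocadherins, grouped in the same way, numbered 34, with a median log2 ratio of 0.67. Of these, 9 were at least 2-fold higher in cochlear and 2 in vestibular mesenchyme, beside 4.85% and 5.53% of all genes. Pcdh19 had 1778 and 341 and Cdh18 had 1009.8 and 305, whereas Cdh11, a cadherin of mesenchyme, had 3751 and 8384.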
